A study of Homo sapiens with 6 samples.

Results

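Translation initiation factor genes were followed in 6 RNA-seq libraries of human pancreatic cancer cells. The members were the entries whose symbol begins with EIF1 to EIF6, without the eIF2α kinases and without pseudogenes, which left 54 of the 53826 entries of each expression table. The 81 pseudogene entries left out were listed at the floor in every library. PK-1 and Panc-1, both established pancreatic ductal adenocarcinoma lines, were kept for 24 h as controls, with RARγi-1 (LY2955303) or with RARγi-2 (MM11253), 2 small-molecule antagonists of the retinoic acid receptor RARγ. Each line gave 1 library per condition, so no difference below has a replicate check, and no test was run. The treatment field of both RARγi-2 libraries names RARγi-1 instead, and these libraries were assigned by their titles. Dose and vehicle in the sequenced cultures were not given in the sources used here.

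Initiation factors bring the first aminoacyl-tRNA and the small ribosomal subunit to the start codon of an mRNA. eIF2 delivers the initiator tRNA, eIF2B reloads eIF2 with GTP, eIF3 holds the small subunit and the mRNA together, eIF4F binds the cap and unwinds the leader, and eIF1, eIF1A and eIF5 set how strictly a start codon is chosen. Phosphorylation of eIF2α turns eIF2 into an inhibitor of eIF2B, which slows initiation on most mRNAs while letting a few stress mRNAs through, and the eIF4E-binding proteins block eIF4F when mTORC1 is quiet. Many genes of the translation machinery carry a 5′ terminal oligopyrimidine start, a C followed by a run of C and T, which places their mRNAs under mTORC1.

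Promoter and start sequences of the genes on which the results turn were read from the RefSeq promoter table for GRCh38.p14, in which 40 of the members with sufficient expression had a window. The 250 bases before the annotated start are shown for EIF1, EIF1B and EIF5, which were higher in the treated libraries, and for EIF2B1, which was lower, so that shared letters can be looked for. Capitals mark a CCAAT box (CCAAT), an E-box (CACGTG) or an antioxidant-type element (TGACNNNGC) found on either strand, and in EIF1 the capitals join a pair of overlapping CCAAT letters on opposite strands.
EIF1, chr17:41688635-41688884, plus strand: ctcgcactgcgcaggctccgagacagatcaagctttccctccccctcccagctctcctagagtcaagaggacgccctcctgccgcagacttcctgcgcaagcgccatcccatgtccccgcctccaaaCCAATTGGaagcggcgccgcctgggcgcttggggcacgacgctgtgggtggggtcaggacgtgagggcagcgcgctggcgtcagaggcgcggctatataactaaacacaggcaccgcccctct
EIF1B, chr3:40309457-40309706, plus strand: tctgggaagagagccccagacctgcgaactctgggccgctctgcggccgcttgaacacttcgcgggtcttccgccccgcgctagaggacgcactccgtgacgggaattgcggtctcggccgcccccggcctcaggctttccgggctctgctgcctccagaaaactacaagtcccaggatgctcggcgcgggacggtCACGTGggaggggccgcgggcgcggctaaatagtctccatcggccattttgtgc
EIF5, chr14:103333987-103334236, plus strand: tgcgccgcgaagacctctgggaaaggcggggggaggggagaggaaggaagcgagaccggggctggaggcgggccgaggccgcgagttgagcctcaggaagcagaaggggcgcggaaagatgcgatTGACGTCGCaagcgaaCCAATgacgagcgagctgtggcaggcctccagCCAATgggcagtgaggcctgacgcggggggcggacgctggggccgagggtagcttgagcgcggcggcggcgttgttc
EIF2B1, chr12:123633687-123633936, minus strand: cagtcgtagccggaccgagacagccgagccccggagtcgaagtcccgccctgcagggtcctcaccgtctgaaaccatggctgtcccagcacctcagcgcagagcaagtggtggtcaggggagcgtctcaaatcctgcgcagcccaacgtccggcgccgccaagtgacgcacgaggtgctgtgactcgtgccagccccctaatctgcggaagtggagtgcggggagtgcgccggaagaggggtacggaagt
The 4 windows did not share a set of these motifs. EIF1 held the CCAAT letters at -123 and -120 from the start, EIF1B held an E-box at -54, and EIF5 held an antioxidant-type element at -125 with CCAAT boxes at -109 and -77. EIF2B1 held none in the bases shown, but past them it held an antioxidant-type element at 31 from the start, the same element type as in EIF5. EIF5 has another annotated start, whose window begins at position 103334638 of chromosome 14 and holds an antioxidant-type element at -228.

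Over the whole 300-base windows, none of the 40 members held the ATF4-type letters TGATGNAA, which 3.62% of all 35116 windows and 2.63% of the 8758 expressed genes with a window hold. Expressed members without a window were not searched, so the result covers 40 of 48. Members without a window are not listed here, and nothing about EIF4EBP1 in particular follows from this result. The E-box was found in 10 members, or 25%, against 13.0% of expressed genes. The CCAAT box was found in 16 members, or 40%, against 43.5% of expressed genes, and the antioxidant-type element in 12 members, or 30%, against 19.6%. These matches describe letters and not bound sites. A start with a C and at least 4 further pyrimidines was present in 9 members, or 22.5%, against 7.60% of expressed genes and 4.07% of all windows. The first 20 bases are given for the 4 members with the longest such runs, with the run in capitals.
EIF3D, chr22:36529147-36529166, minus strand: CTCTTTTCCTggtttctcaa
EIF3F, chr11:7987337-7987356, plus strand: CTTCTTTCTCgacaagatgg
EIF2A, chr3:150546787-150546806, plus strand: CTCTTTCCgggacaacatgg
EIF3K, chr19:38619188-38619207, plus strand: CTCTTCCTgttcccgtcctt
The other 5 were EIF2D, EIF2S3, EIF3M, EIF4A2 and EIF4B. The 9 genes had a median log2 fold change of 0.06 in PK-1 with RARγi-1 and -0.11 with RARγi-2, and of 0.07 and 0.25 in Panc-1. The 31 members with a window and without such a start had medians of -0.12, -0.15, 0.00 and -0.06 in the same order.

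The tables gave log2 values of TPM, the share of all transcripts of a library that an entry takes, scaled to transcript length, with 0 for 1 TPM or less. This lowest value is called the floor. Between 13149 and 13652 entries per library lay above it, and since TPM keeps no read depth, no counting interval could be set. Epithelial markers were above the floor for 5 of 5 genes in PK-1 and 4 of 5 in Panc-1, where CDH1 was at the floor. All 3 endothelial markers were at the floor, and 1 of 4 blood cell markers was above it in each line, with a summed level of at most 5.75 TPM that includes the floor values. Of 3 acinar markers only PRSS1, in PK-1, was above the floor.

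Of the 54 members, 48 had a mean of at least 5 TPM over the libraries, as did 10941 entries in all, and these were compared. EIF4E, EIF4A1, EIF4E1B and the antisense entries EIF1B-AS1 and EIF1AX-AS1 were listed at the floor in all 6 libraries. EIF4E, the cap-binding protein, and EIF4A1, the main helicase of eIF4F, are genes that every cell uses, so their entries give no level. EIF4E3, an eIF4E relative, stood at 5.02, 8.02 and 9.63 TPM in the PK-1 control, RARγi-1 and RARγi-2 libraries and at the floor in Panc-1. EIF1AY, on the Y chromosome, is counted with the members and its levels are left out. All fold changes are on the log2 scale of TPM + 1, treated library over the control of its line, and the comparisons within a line share that control. Where 3 levels are given for a line they are the control, RARγi-1 and RARγi-2 libraries in that order, and where 4 fold changes are given they are PK-1 with RARγi-1, PK-1 with RARγi-2, Panc-1 with RARγi-1 and Panc-1 with RARγi-2. In bulk RNA, a change in all cells and a change in the share of cells that carry a transcript cannot be told apart.

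Few members were past 2-fold. With RARγi-1 in PK-1, 0 of 48 members were past 2-fold in either direction, against 9.83% of all entries upward and 5.13% downward. With RARγi-2 in PK-1, EIF1 and EIF4EBP3 were higher past 2-fold and EIF2B1 was lower, against 12.6% of entries upward and 13.6% downward. In Panc-1, RARγi-1 gave EIF1, EIF1B and EIF4EBP1 past 2-fold upward against 7.81% of entries, and 0 downward against 6.13%. RARγi-2 in Panc-1 gave 5 members upward, EIF1, EIF1B, EIF4EBP1, EIF4EBP3 and EIF5, against 9.09% of entries, and 0 downward against 11.4%. As shares of the 48 members the upward counts were 0%, 4.17%, 6.25% and 10.4%. These shares were below those of all entries, except with RARγi-2 in Panc-1, where the share was near it. The genes called upward were start codon selection genes and eIF4E-binding protein genes, but these groups did not move as a whole. EIF1AX, EIF4EBP2 and EIF4ENIF1, of the same groups, were lower in each treated library than in its control. A shared direction by any amount was common. Of all entries, 31.4% were higher in every comparison and 24.6% lower, against 27.1% and 37.5% of the members.

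At 1.5-fold, PK-1 with RARγi-1 gave 5 members higher (22.8% of entries) and 3 lower (12.3%). PK-1 with RARγi-2 gave 5 higher (23.5%) and 10 lower (24.4%). Panc-1 with RARγi-1 gave 5 higher (19.4%) and 1 lower (14%), and with RARγi-2 it gave 7 higher (19.3%) and 0 lower (21.6%). After rescaling each library by median ratios, which lowered the fold changes by 0.13 with RARγi-1 in PK-1 and by 0.10 with RARγi-1 in Panc-1 and moved the other comparisons by less than that, these splits became 4 higher and 5 lower in PK-1 with RARγi-1 and 5 and 3 in Panc-1 with RARγi-1. EIF1 and EIF1B were past 1.5-fold higher in every comparison, as were 8.77% of entries, and 0 members were past it lower in every one, as were 6.05%. Below 1.5-fold a difference lies near the spread between libraries. The robust SD of the difference between the 2 treated libraries of a line, which holds true differences between inhibitors as well as technical spread, was 0.39 on the log2 scale for PK-1 and 0.30 for Panc-1, or 0.28 and 0.21 when divided by the square root of 2 to stand for a single library.

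The medians of the 48 members were -0.06 and -0.15 in PK-1 with RARγi-1 and RARγi-2 and 0.03 and -0.01 in Panc-1, beside 0.13, 0.00, 0.06 and 0.00 for all entries. After the rescaling the first and the third became -0.19 and -0.06, so that the sign of the Panc-1 median with RARγi-1 turned. The member transcripts together made up 1.13% or 1.14% of all TPM in each of the 3 PK-1 libraries, and 1.52%, 1.57% and 1.68% in the Panc-1 control, RARγi-1 and RARγi-2 libraries. In PK-1 the sum was close to level while single factors within it moved apart.

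**Figure D1:**
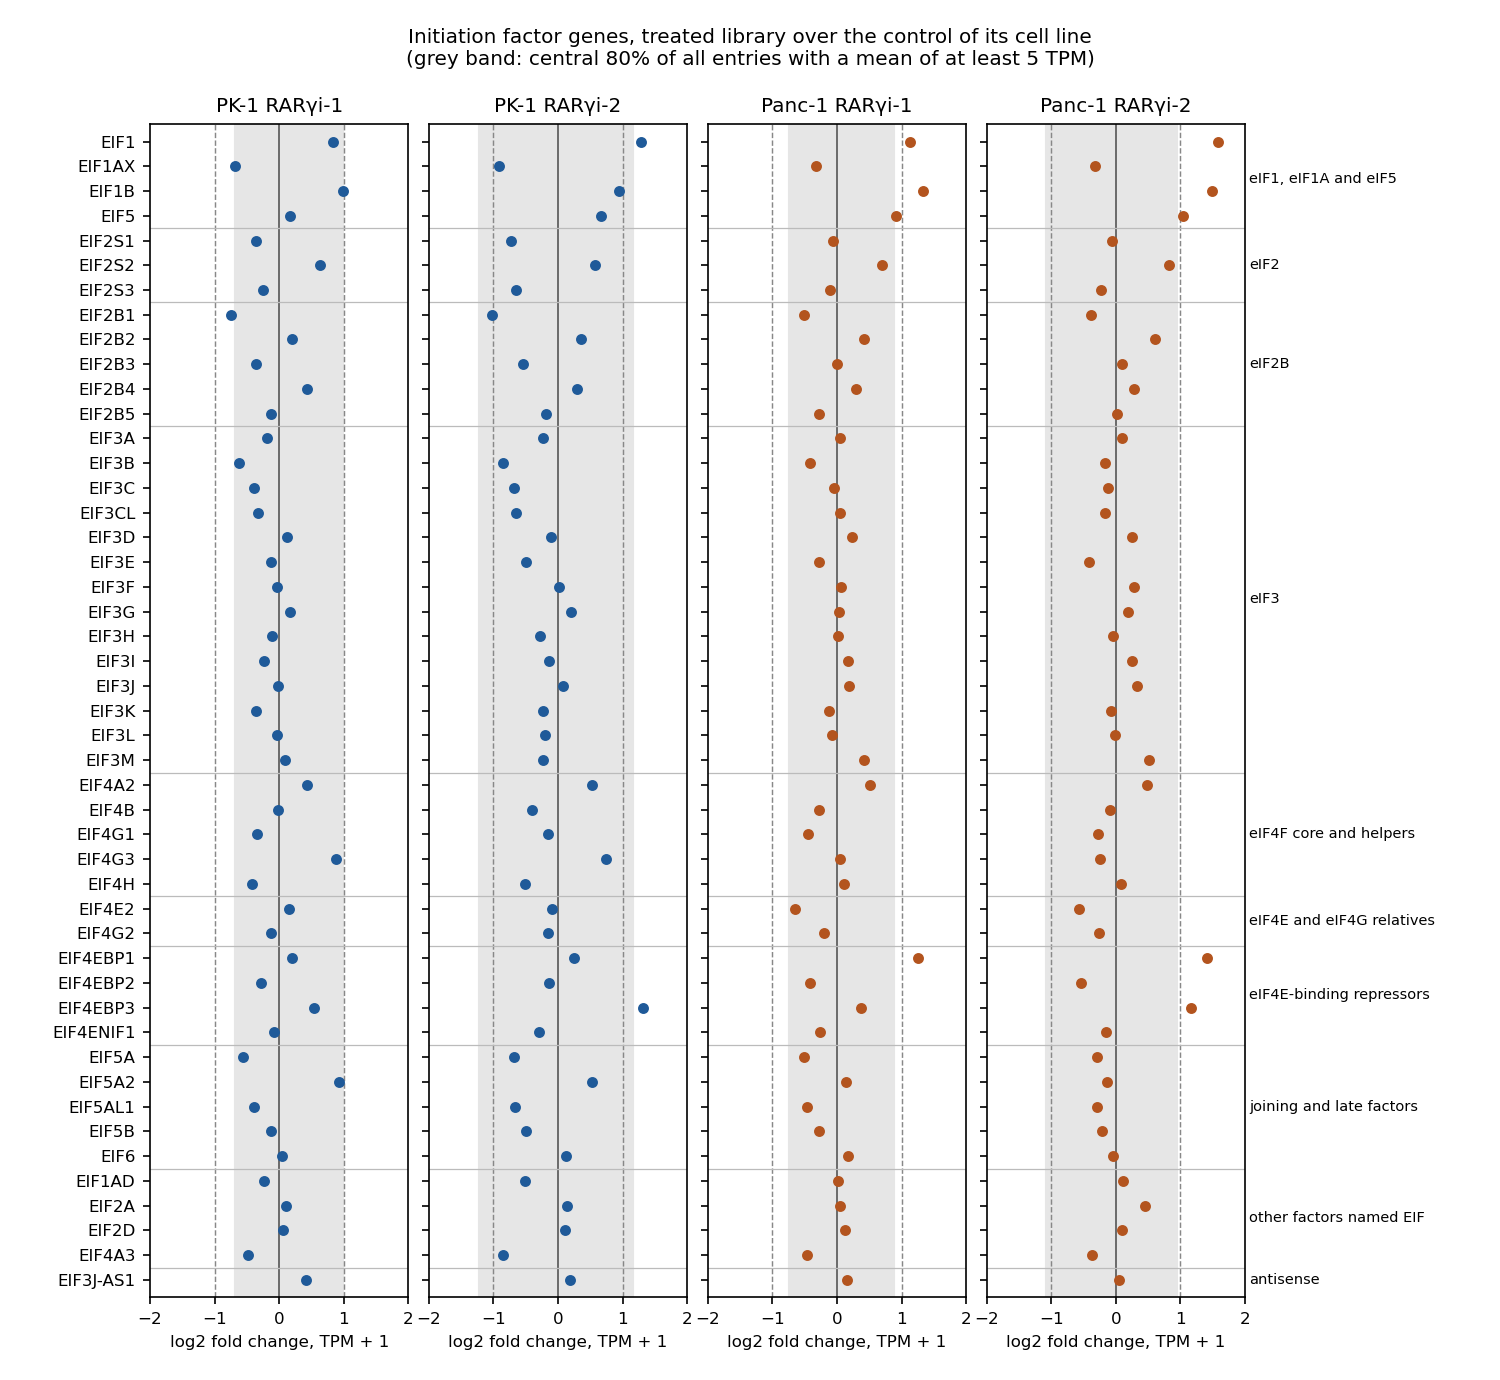
Log2 fold change (TPM + 1, x axis) of each expressed initiation factor gene (rows, grouped by complex) in the 4 treated libraries over the control of the same line, 1 library each. The grey band holds the central 80% of all entries and the dashed lines mark 2-fold. EIF1 and EIF1B lie to the right in each panel, EIF4EBP1 is past the 2-fold line in both Panc-1 panels, and the eIF3 rows cluster around 0.

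The start codon selection genes had the highest medians of the factor groups, 0.17, 0.67, 0.91 and 1.04, with EIF1, EIF1B and EIF5 higher and EIF1AX lower in each treated library. EIF1 encodes the factor that keeps the scanning ribosome from pausing at poor start codons (chr17:41688885-41692668). It stood at 1004 TPM in the PK-1 control, 1784 with RARγi-1 and 2451 with RARγi-2, and at 722, 1574 and 2161 TPM in the corresponding Panc-1 libraries. Both treated libraries lay above the control in each line, and the log2 fold changes were 0.83, 1.29, 1.12 and 1.58. EIF1 was thereby the most abundant initiation factor transcript in both treated PK-1 libraries, where EIF5A held that place in the control.

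EIF1B, a close paralog of EIF1 at chr3:40309707-40312424, had 43.3, 86.6 and 83.8 TPM in PK-1 and 51.1, 130.4 and 145.8 TPM in Panc-1. These levels gave log2 fold changes of 0.98 and 0.94 in PK-1, against 1.34 and 1.5 in Panc-1. The pair kept their proportion, with 23.2, 20.6 and 29.2 EIF1 transcripts per EIF1B transcript in PK-1, against 14.1, 12.1 and 14.8 for Panc-1. Reads of such near copies can be assigned to the wrong gene, so their separate levels are less certain than their sum.

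EIF5, whose product triggers GTP hydrolysis by eIF2 at the start codon, had 155, 175 and 247 TPM in PK-1 and 108, 204 and 223 TPM in Panc-1. The log2 fold change was 0.17 in PK-1 with RARγi-1, within the spread between libraries, and 0.67, 0.91 and 1.04 in the others. EIF1AX, which encodes the partner of eIF1 in scanning, went the other way. It had 85.9, 53.2 and 44.9 TPM in PK-1 and 66.2, 52.8 and 52.6 TPM in Panc-1, which are log2 fold changes of -0.68, -0.92, -0.32 and -0.33. The ratio of EIF1 to EIF1AX went from 11.7 in the PK-1 control to 33.5 and 54.6, and from 10.9 in the Panc-1 control to 29.8 and 41.1. EIF1AD, which encodes a protein with an eIF1A-like domain, had 30.6, 25.8 and 21.2 TPM in PK-1 and 40.6, 41.3 and 44.1 TPM in Panc-1.

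**Figure D2:**
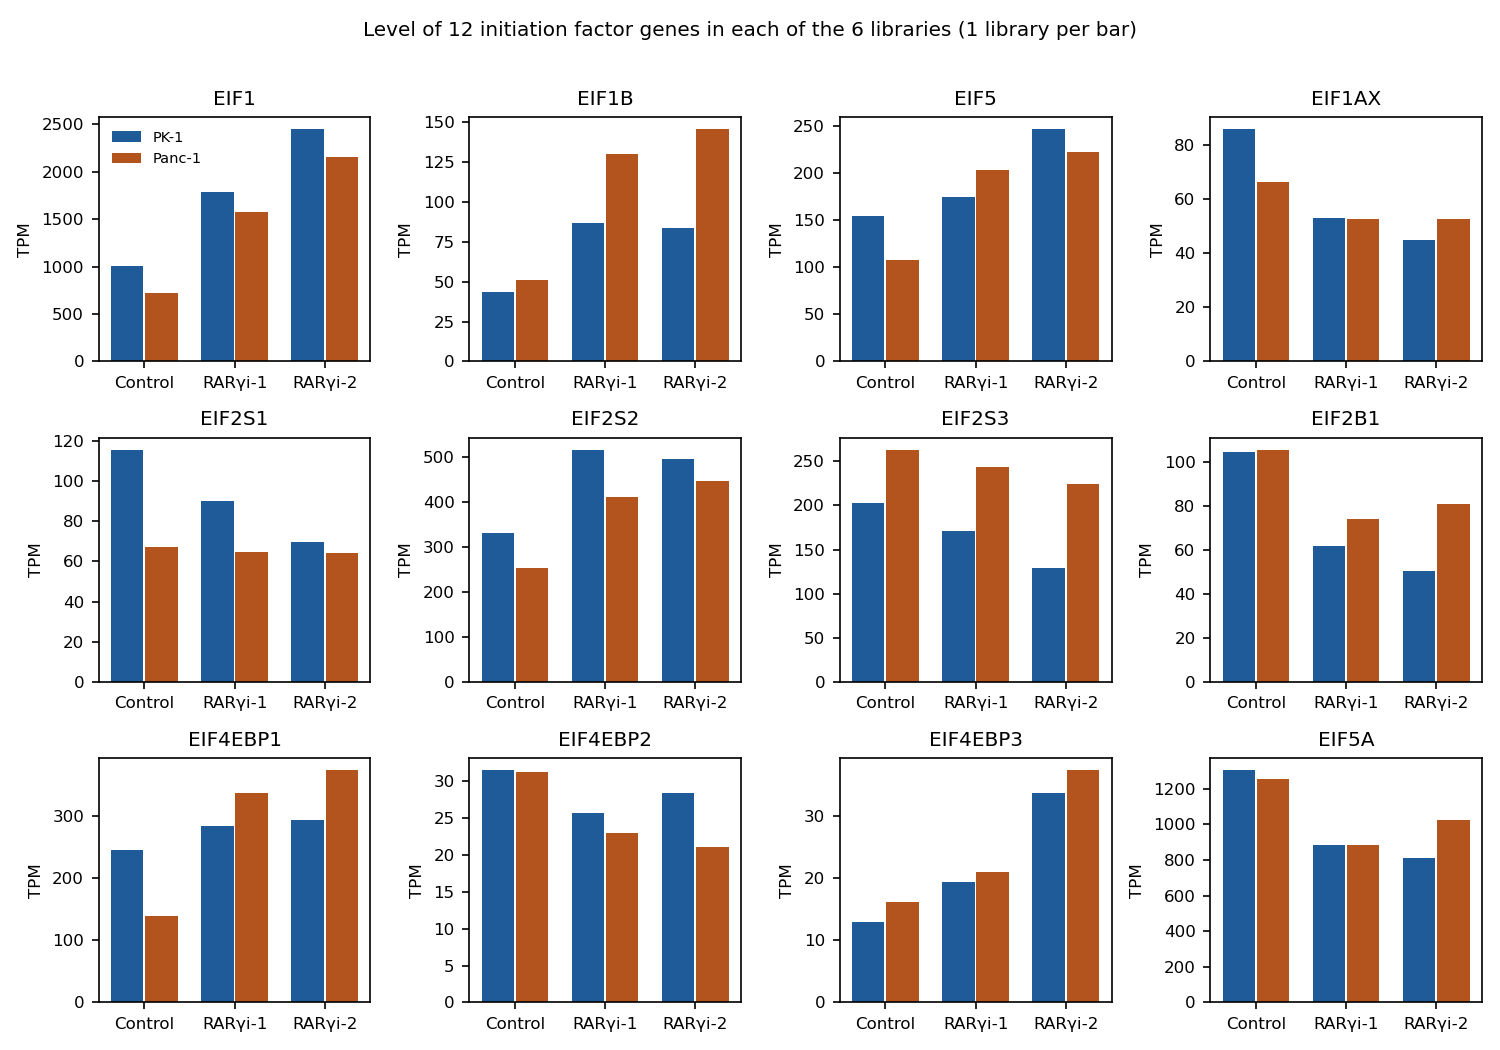
TPM (y axis, from 0) of 12 initiation factor genes in the control, RARγi-1 and RARγi-2 libraries of PK-1 (blue) and Panc-1 (orange), 1 library per bar. EIF1, EIF1B, EIF5, EIF2S2, EIF4EBP1 and EIF4EBP3 are higher in both treated libraries of each line, and EIF1AX, EIF2S1, EIF2S3, EIF2B1, EIF4EBP2 and EIF5A are lower.

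The 3 subunits of eIF2 moved apart. EIF2S2, the β subunit that contacts eIF5 and eIF2B, had 331, 516 and 494 TPM in PK-1 and 253, 409.8 and 446 TPM in Panc-1. Its log2 fold changes were 0.64, 0.58, 0.69 and 0.82, the largest of the eIF2 and eIF2B genes upward. EIF2S1, the α subunit that the stress kinases phosphorylate, had 116, 90.05 and 69.5 TPM in PK-1 and 67.0, 64.4 and 64.2 TPM in Panc-1. EIF2S3, the γ subunit that binds GTP and tRNA, had 203, 170.5 and 129 TPM in PK-1 and 263, 243 and 224 TPM in Panc-1. In PK-1 with RARγi-2 both were past 1.5-fold lower, with log2 fold changes of -0.73 and -0.65, while in Panc-1 they lay between -0.06 and -0.23. The ratio of EIF2S2 to EIF2S1 was 2.86 in the PK-1 control and 5.73 and 7.11 in the treated libraries, and 3.77 in the Panc-1 control against 6.36 and 6.95.

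Among the 5 subunits of eIF2B, the exchange factor of eIF2, the regulatory α subunit gene EIF2B1 had the lowest fold changes. It had 104 TPM in the PK-1 control, 61.6 with RARγi-1 and 50.5 with RARγi-2, and 105, 74.0 and 80.9 TPM in Panc-1. The log2 fold changes were -0.75, -1.03, -0.50 and -0.38, and the value for RARγi-2 in PK-1 was the only downward one past 2-fold among the members, a call that ended after the rescaling. EIF2B2, the regulatory β subunit gene, moved the other way, with 79.0, 90.5 and 101 TPM in PK-1 and 53.6, 71.9 and 82.0 TPM in Panc-1. There were 0.759 EIF2B2 transcripts per EIF2B1 transcript in the PK-1 control against 1.47 and 2.0 after treatment, and 0.509 in the Panc-1 control against 0.972 and 1.01. EIF2B4, the regulatory δ subunit gene, had log2 fold changes of 0.44, 0.29, 0.30 and 0.28. The catalytic ε subunit gene EIF2B5 had -0.12, -0.18, -0.28 and 0.01, and the γ subunit gene EIF2B3 had -0.35 and -0.55 in PK-1, against 0.00 and 0.09 in Panc-1. The medians of the eIF2B list were -0.12, -0.18, 0.00 and 0.09 and hide these opposite movements.

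**Figure D3:**
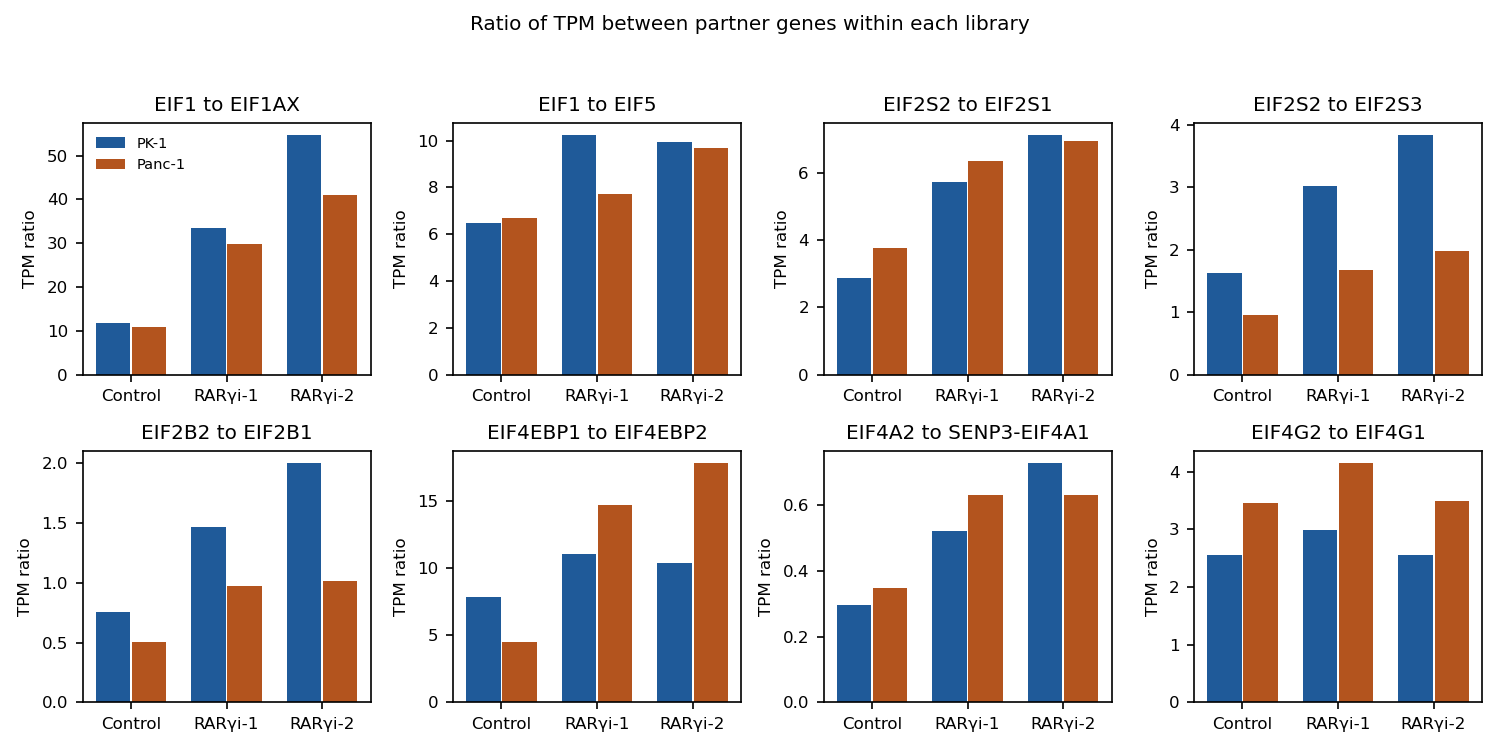
Ratio of TPM between partner genes within each library (y axis, from 0) for PK-1 (blue) and Panc-1 (orange), 1 library per bar. The ratio of EIF2S2 to EIF2S1 is 2.86 and 3.77 in the controls and between 5.73 and 7.11 in the treated libraries, and EIF4G2 to EIF4G1 stays between 2.56 and 4.15.

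The 14 genes of eIF3, the scaffold complex, moved little. In PK-1, 11 of 14 were lower and 3 higher with either inhibitor, with medians of -0.12 and -0.23. Of all 10941 entries, 4324 were lower and 6424 higher with RARγi-1 in PK-1, and 5385 and 5374 with RARγi-2. The entries lower and higher in Panc-1 were 4700 and 5930 with RARγi-1, and 5461 and 5167 with RARγi-2. In Panc-1, 9 eIF3 genes were higher and 5 lower with RARγi-1 and 7 were on each side with RARγi-2, with medians of 0.04 in both. The rescaling turned the Panc-1 split with RARγi-1 to 4 higher and 10 lower and its median to -0.06. It also moved the PK-1 medians, to -0.25 with RARγi-1 and -0.19 with RARγi-2, beside 0.05 with RARγi-2 in Panc-1. The sign of the Panc-1 median with RARγi-1 thus depended on scaling, while the Panc-1 medians stayed above those of PK-1. This difference between the lines was not tested. No eIF3 gene was past 1.5-fold higher, and those past 1.5-fold lower were EIF3B with RARγi-1 in PK-1 and EIF3B, EIF3C and EIF3CL with RARγi-2 in PK-1. EIF3B, a core subunit that docks eIF3 on the small ribosomal subunit, had 342, 223 and 188 TPM in PK-1 and 601, 449.6 and 533 TPM in Panc-1. EIF3C and EIF3CL are near-identical copies on chromosome 16, so their reads can be split between them in either way. Their sum was 147, 117 and 92.8 TPM in PK-1 and 249, 257 and 222 TPM in Panc-1. EIF3M, a subunit of the outer octamer, had the highest Panc-1 changes of the group, 0.42 and 0.51, beside 0.10 and -0.23 in PK-1. EIF3E, another octamer subunit, had -0.13 and -0.49 in PK-1, against -0.27 and -0.42 in Panc-1. EIF3G, which binds RNA with eIF3I and eIF3B, had 188, 212 and 216 TPM in PK-1 and 386, 396 and 438 TPM in Panc-1, and its log2 fold changes of 0.17, 0.19, 0.04 and 0.18 did not keep their sign in all comparisons after the rescaling.

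EIF3K stood apart in level and not in response. This peripheral eIF3 subunit gene had 597, 465 and 509.9 TPM in PK-1 and 4069, 3727 and 3855 TPM in Panc-1. Treatment moved it by -0.36 and -0.23 (log2) in PK-1, against -0.13 and -0.08 in Panc-1. In the Panc-1 control the 11 eIF3 genes other than EIF3K, EIF3C and EIF3CL ranged from 160.1 to 647 TPM with a median of 387, and in the PK-1 control from 188 to 599 TPM with a median of 369. EIF3K made up most of the difference in the eIF3 sum between the lines, 8604 TPM in the Panc-1 control against 4649 in PK-1, while without it the sums were 4534 and 4052. EIF3K lies at chr19:38619188-38636954. Because of its level, the genes within 1 Mb were looked at after the values had been seen. Of the 32 other expressed genes there, 24 were higher in the Panc-1 control past 2-fold, or 75%, and 0 were lower, with a median difference of 2.24 on the log2 scale. Genes were kept by their mean over all 6 libraries, so a level in Panc-1 alone could admit a gene to these counts. PPP1R14A, DLL3 and RYR1 are such cases among the 24. They were at the floor in the PK-1 control and at 705, 193 and 12.8 TPM in that of Panc-1. The same filter held for the wider sets that follow. Over all 738 expressed entries of chromosome 19 the median difference was 0.41 with 26.2% past 2-fold higher, and over all entries it was 0.02 with 15.8%.

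**Figure D4:**
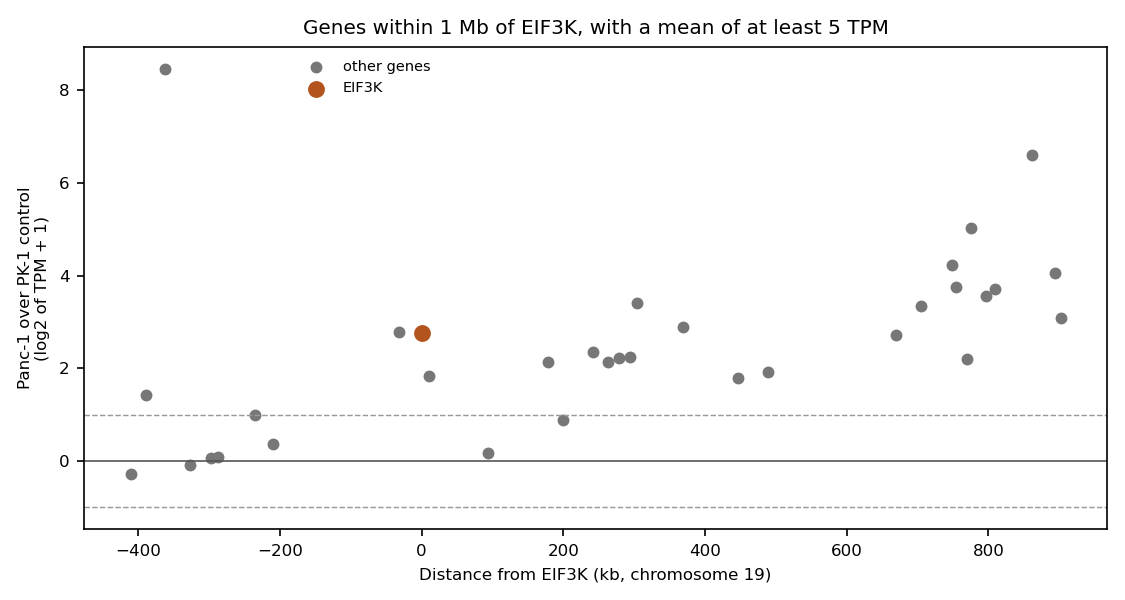
Log2 difference between the Panc-1 and PK-1 control libraries (y axis, TPM + 1) for the expressed genes within 1 Mb of EIF3K, by the gap between each gene and EIF3K (x axis, kb). EIF3K is the orange point, dashed lines mark 2-fold, and 24 of the 32 grey points lie above the upper line.

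Besides EIF3K, the members past 2-fold higher in the Panc-1 than in the PK-1 control were EIF3G, EIF4G3 and EIF5A2, together 4 of 48 against 15.8% of all entries. EIF4G3, an eIF4G paralog, had 11.6 TPM in the PK-1 control but 33.8 in that of Panc-1, and EIF5A2 had 4.67 and 14.7 TPM. Past 2-fold lower in Panc-1 were 2 members against 15.3% of entries, one of them the EIF3J antisense entry at 20.8 and 8.34 TPM. The other members with a mean of at least 5 TPM were within 2-fold of each other in the controls.

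**Figure D5:**
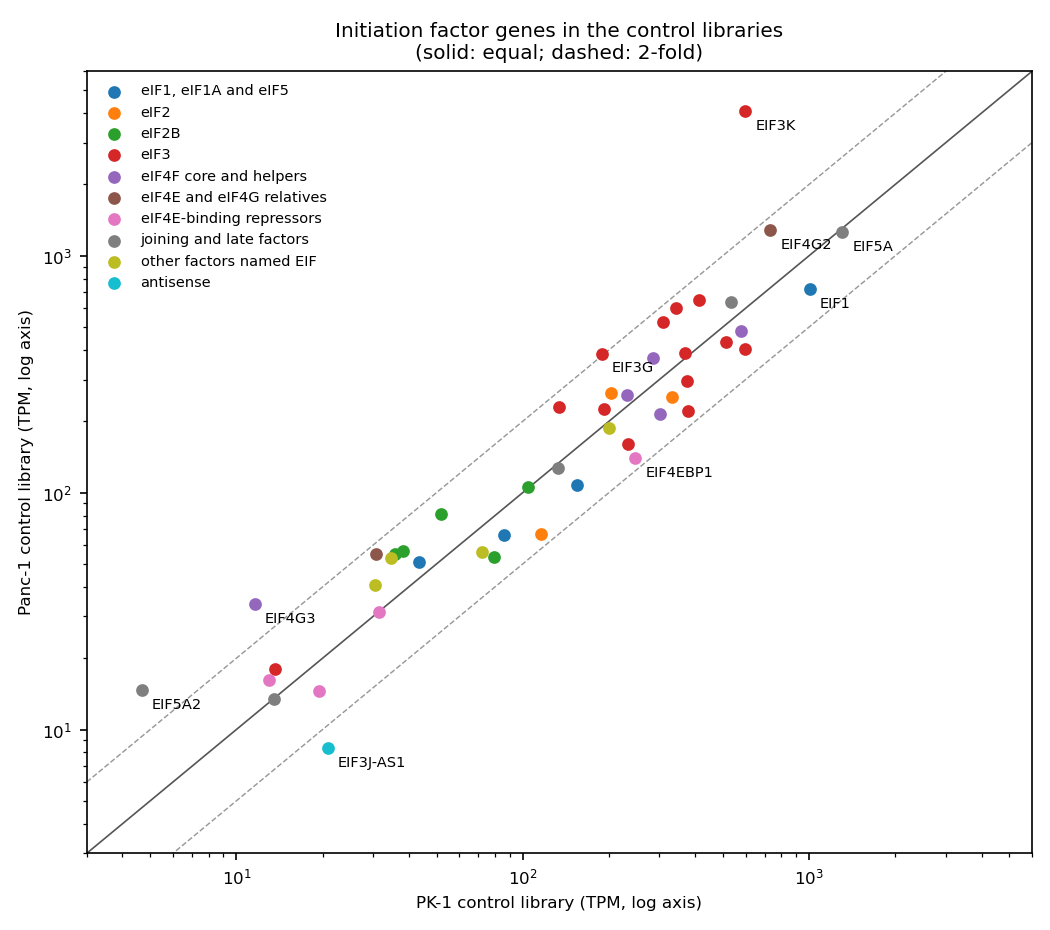
TPM in the PK-1 control (x axis) and the Panc-1 control (y axis) on log axes for the expressed initiation factor genes, coloured by complex. Most points lie between the dashed 2-fold lines, and EIF3K stands above them at 597 and 4069 TPM.

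Among the expressed genes of eIF4F, the cap-binding complex, and its helpers, only EIF4G3 passed 1.5-fold, in PK-1. EIF4A2, the helicase paralog of EIF4A1, had 232, 312 and 336 TPM in PK-1 and 257, 367 and 360.4 TPM in Panc-1, with log2 fold changes of 0.43, 0.53, 0.51 and 0.48. EIF4A1 itself was listed at the floor. The read-through entry SENP3-EIF4A1, which spans EIF4A1 on chromosome 17 (7561992 to 7579006), had 779, 599.9 and 462 TPM in PK-1 and 742, 582 and 570.5 TPM in Panc-1, which are log2 fold changes of -0.38, -0.75, -0.35 and -0.38. With EIF4A1 and this entry pooled, the value with RARγi-2 in PK-1 was -0.75, past 1.5-fold lower. The call for EIF4G3 alone thus leaves EIF4A1 out. EIF4G1, the scaffold of eIF4F, had 286, 225 and 257 TPM in PK-1 and 369.6, 269.7 and 305 TPM in Panc-1. EIF4G3 was higher in PK-1, at 22.1 and 20.04 TPM against 11.6 in the control, and stood at 34.8 and 28.4 TPM in Panc-1 against 33.8. EIF4H, which stimulates the helicase, had -0.42 and -0.51 in PK-1, against 0.10 and 0.08 in Panc-1. EIF4B, another helper of the helicase, had -0.01 and -0.40 in PK-1, against -0.28 and -0.09 in Panc-1. The eIF4G relative EIF4G2, which serves initiation without eIF4E, had fold changes between -0.12 and -0.26, and EIF4E2, a weak cap binder linked to repression, had 0.16 and -0.10 in PK-1, against -0.65 and -0.58 in Panc-1.

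The gene for 4E-BP1, EIF4EBP1, which sequesters eIF4E and is released by mTORC1 phosphorylation, was higher with both inhibitors mainly in Panc-1. It had 140.2 TPM in the Panc-1 control, 338 with RARγi-1 and 375 with RARγi-2, a log2 fold change of 1.26 and of 1.41. In PK-1 it had 246, 284 and 294 TPM, with log2 fold changes of 0.20 and 0.25, within the spread between libraries. Of all entries, 4.33% and 4.45% had a higher fold change in the Panc-1 comparisons, and 45.2% and 36.8% in the PK-1 comparisons. The Panc-1 control was the lowest library of the 6, and both treated Panc-1 libraries were above all PK-1 libraries. The difference between the lines was not tested, since there is 1 library for each condition.

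EIF4EBP2, the second 4E-BP gene, was lower, with 31.5, 25.7 and 28.4 TPM in PK-1 and 31.2, 23.0 and 21.0 TPM in Panc-1. EIF4EBP1 thus made up more of the pair, with ratios of 7.82, 11.0 and 10.4 in PK-1, against 4.49, 14.7 and 17.8 in Panc-1. EIF4EBP3, the third 4E-BP gene, had 13.0, 19.4 and 33.8 TPM in PK-1 and 16.2, 21.1 and 37.4 TPM in Panc-1. Its log2 fold changes were 0.54, 1.31, 0.36 and 1.16, past 2-fold in each line with RARγi-2. EIF4EBP3 shares sequence with the read-through entry ANKHD1-EIF4EBP3, and with both entries pooled the values were 0.48, 0.97, 0.45 and 0.998, which ends the 2-fold call in both lines. EIF4ENIF1, which encodes the protein that carries eIF4E into the nucleus, had values from -0.09 to -0.29.

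Among joining and late factors, EIF5A, the hypusinated factor that helps stalled ribosomes along, was the most abundant initiation factor transcript of the PK-1 control. It had 1304, 884 and 809 TPM in PK-1 and 1257, 884 and 1023 TPM in Panc-1, with log2 fold changes of -0.56, -0.69, -0.51 and -0.30. EIF5AL1, a near copy of EIF5A, had -0.38, -0.67, -0.46 and -0.29 at a level of 8.16 to 13.6 TPM, and its reads cannot be told apart from those of EIF5A with certainty. The paralog EIF5A2 was low, with 4.67, 9.74 and 7.14 TPM in PK-1 and 14.7, 16.2 and 13.2 TPM in Panc-1. EIF5B, the GTPase that joins the large subunit, had -0.13, -0.49, -0.28 and -0.22. EIF6, which keeps the large subunit from joining too early, had 0.05, 0.12, 0.18 and -0.04. EIF4A3, a helicase of the exon junction complex that shares the EIF4 name, had 200.3, 143 and 110.4 TPM in PK-1 and 187, 135 and 144 TPM in Panc-1, which are log2 fold changes of -0.48, -0.85, -0.46 and -0.37. EIF2A and EIF2D, which can deliver tRNA without eIF2, had values between 0.05 and 0.46, which did not all stay positive after the rescaling.

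Translation genes outside the family held both higher and lower genes. Of 60 genes on lists of elongation, termination, poly(A)-binding, scanning, eIF2 kinase and phosphatase, mTORC1, eIF4E kinase, maturation and mitochondrial factors, 58 were expressed. Past 2-fold, 8 were higher and 2 lower with RARγi-1 in PK-1, 8 and 7 with RARγi-2 in PK-1, 5 and 1 with RARγi-1 in Panc-1, and 6 and 3 with RARγi-2 in Panc-1. The upward shares were 13.8%, 13.8%, 8.62% and 10.3% in that order, against 9.83%, 12.6%, 7.81% and 9.09% of all entries, and the downward shares were 3.45%, 12.1%, 1.72% and 5.17%, against 5.13%, 13.6%, 6.13% and 11.4%. The upward shares were mostly near those of entries in general, and the downward shares were below them. Past 2-fold upward in every comparison were 5 of the 58 genes, against 2.95% of all entries and 0 members. They were EIF2AK3, PPP1R15A, DDIT4, SESN2 and PDCD4. Past it downward was 1 of the 58, DHX9, against 2.35% of entries and 0 members.

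PPP1R15A, also called GADD34, brings the phosphatase to eIF2α. It had 110.5, 507 and 1055 TPM in PK-1 and 33.0, 301 and 436 TPM in Panc-1. EIF2AK3, the eIF2α kinase PERK, had 9.42, 28.8 and 46.0 TPM in PK-1 and 4.72, 15.4 and 24.1 TPM in Panc-1. The transcription factor ATF4, whose mRNA is translated when eIF2α is phosphorylated, had 472, 1138 and 1394 TPM in PK-1 and 312, 618 and 821 TPM in Panc-1. Other genes of the eIF2 kinase and phosphatase list went both ways. PPP1R15B, PPP1CB and IMPACT were higher in each treated library than in its control, with log2 fold changes from 0.02 to 0.78. PPP1CC, a catalytic subunit of the phosphatase, had 258, 129 and 102 TPM in PK-1 and 243, 125 and 104 TPM in Panc-1, and EIF2AK4, the eIF2α kinase GCN2, had 47.6, 36.0 and 19.9 TPM in PK-1 and 21.9, 24.5 and 14.8 TPM in Panc-1. PPP1CC was thus lower in each treated library, and EIF2AK4 in all but Panc-1 with RARγi-1. The genes of this list other than EIF2AK3 and PPP1R15A were named after their values were seen. ATF4 is not on this list and falls outside the rules for named genes. Its log2 fold change with RARγi-1 in Panc-1 was 0.985, short of 2-fold.

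DDIT4 and SESN2, which restrain mTORC1, had the largest values of the mTORC1 list. They and PDCD4 were named for passing 2-fold upward, so they do not stand for the list. Of its other regulators, AKT1S1 had log2 fold changes of -0.33, 0.17, -0.24 and 0.07, and TSC1 had 0.32, 0.25, 0.43 and 0.33. DDIT4 had 415, 1793 and 1712 TPM in PK-1 and 118, 1406 and 1056 TPM in Panc-1. SESN2 had 17.8, 100.1 and 165 TPM in PK-1 and 23.4, 297 and 301 TPM in Panc-1. PDCD4, which binds eIF4A and blocks its helicase activity, had 16.0, 44.4 and 61.1 TPM in PK-1 and 14.7, 51.6 and 64.6 TPM in Panc-1. On the scanning list, the RNA helicase gene DHX9 had 151, 62.9 and 42.0 TPM in PK-1 and 148, 67.0 and 51.8 TPM in Panc-1. The core mTORC1 genes MTOR and RPTOR stayed between -0.11 and 0.08 on the log2 scale.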

How the data were processed

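Libraries were grouped by cell line and treatment from their titles, with 1 library per condition. The authors deposited 1 table per library of gene-level log2 TPM values, with values of 1 TPM or less listed as 0. The submitters' processing notes name the build hg38, and the aligner, counter and annotation were not given in the sources used here. Read counts were not used, and depth is unknown. Values were returned to TPM, entries with a mean of at least 5 TPM over the 6 libraries were kept, and log2 fold changes were taken with a pseudocount of 1 TPM. No test was run, since each group is 1 library, and the text gives values and counts past 2-fold or 1.5-fold, beside the share of all entries past the same fold. Members and lists were chosen with earlier results of these data known. EIF4EBP1, EIF4EBP2 and EIF4EBP3 were kept although their symbols end in P and a number. No symbol was repeated. Named genes were EIF4EBP1, members past 2-fold in any comparison or past 1.5-fold in the same direction in all, the 3 highest and 3 lowest by mean fold change, the extremes of each complex, the partners of the ratios, the 5 most abundant members, and listed pathway genes past 2-fold in the same direction in all comparisons. Further members are named to complete a complex, and the ratios EIF1 to EIF1AX, EIF1 to EIF5, EIF2S2 to EIF2S1 and EIF2S3, EIF2B2 to EIF2B1 and EIF4A2 to SENP3-EIF4A1 were chosen after the values were seen. All 54 members matched a RefSeq gene by Entrez identifier, and coordinates and sequences are from RefSeq GRCh38.p14. Scripts ran on Python 3.11.15 with pandas 2.3.3, NumPy 2.4.6 and matplotlib 3.10.9 and were tested on simulated data. Alternatives were no pseudocount or 0.1 TPM, no filter, a minimum of 50 TPM on the mean or of 5 TPM in 1 library of the line, median-ratio rescaling, a 3-fold threshold, coding factors only, summed repeated symbols and pooled copies.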

Additional observations from a re-analysis of the deposited data

Results flagged for a closer look

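Of the 48 members, 5 had opposite directions in the lines, lower in both treated PK-1 libraries and higher in both treated Panc-1 libraries. The share of all entries with this pattern is not given here, so the count cannot be read as a trait of these genes. The mean log2 fold change in Panc-1 minus that in PK-1 was 0.56 for EIF4H, 0.50 for EIF2B3, 0.44 for EIF1AD, 0.40 for EIF3I and 0.29 for EIF3A. The difference between the lines was not tested, since each condition has 1 library and the treated libraries of a line share a control. The Panc-1 means were small for EIF4H (0.09), EIF2B3 (0.05), EIF1AD (0.07) and EIF3A (0.07), and 0.21 for EIF3I, beside a spread between treated Panc-1 libraries of 0.30. After the rescaling EIF2B3, EIF1AD and EIF3A were lower with RARγi-1 in Panc-1, at -0.09, -0.07 and -0.05, and no longer had opposite directions in the lines.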

How the results depend on the processing

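No paired analysis was possible because the groups compared hold 1 library each and share fewer than 2 replicate numbers, and no library could be left out. A fit over both lines with the line as a block was not run. No called value changed direction, while medians near 0 did. With RARγi-1 the rescaling turned those of all members, eIF2B, eIF3, eIF4F, the repressors and the other factors in Panc-1 and those of the relatives and repressors in PK-1, and the minimum of 50 TPM turned the eIF2B medians in PK-1 and a few others. Without a pseudocount, members higher past 2-fold with RARγi-1 in PK-1 went from 0 to 2 and members lower past 1.5-fold with RARγi-2 in Panc-1 from 0 to 1, and with 0.1 TPM both became 1. After rescaling, members lower past 1.5-fold with RARγi-1 were 5 in PK-1 (3 before) and 3 in Panc-1 (1 before), the 1 member lower past 2-fold in PK-1 treated with RARγi-2 became 0, and other translation genes lower past 2-fold with RARγi-1 in Panc-1 from 1 to 2. With a mean of at least 50 TPM, members higher past 1.5-fold were 3 in PK-1 with either inhibitor (5 before), members higher past 2-fold with RARγi-2 in PK-1 were 1 (2 before), and members lower past 1.5-fold with RARγi-1 in Panc-1 were 0 (1 before). Under that minimum the other translation genes higher past 2-fold were 5 and 5 in PK-1 (8 and 8 before) and 3 in Panc-1 with RARγi-1 (5 before), and those past 1.5-fold were 6 in PK-1 with RARγi-2 (11 before) and 5 and 5 in Panc-1 (10 and 9 before). The repressor median in Panc-1 became 1.26 and 1.41 from 0.05 and 0.51, since only EIF4EBP1 remained, the eIF1, eIF1A and eIF5 median became 0.50 from 0.17 with RARγi-1 in PK-1, and with RARγi-1 in Panc-1 the medians of the eIF4E and eIF4G relatives and of the other factors became -0.19 (-0.42 before) and -0.20 (0.04 before). With RARγi-2 in Panc-1 the eIF1, eIF1A and eIF5 median became 1.27 (1.04 before) under that minimum and with a minimum of 5 TPM in 1 library of the line. Without a filter, the median of the eIF4E and eIF4G relatives in Panc-1 was -0.10 and -0.13 (-0.42 before in both). Past 3-fold, the counts of 2 up and 1 down with RARγi-2 in PK-1 and of 3 and 5 up in Panc-1 became 0. With copies and read-through entries pooled, an alternative chosen after seeing the data, members higher past 2-fold with RARγi-2 in PK-1 were 1 (2 before) and the median of the joining and late factors there was -0.19 (-0.49 before). EIF1 ranged from 0.70 to 0.83 with RARγi-1 in PK-1 over 5 alternatives and EIF1B from 0.86 to 1.001, both past 1.5-fold throughout. In PK-1 treated with RARγi-2, EIF2B1 ranged from -1.05 to -0.997. A value counted as moved when it shifted by more than the single-library spread of its line, 0.28 in PK-1 and 0.21 in Panc-1.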
